A study of Ovis aries and Capra hircus and Bos taurus with 26 samples.

Results

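The goat libraries of a liver ChIP-seq study were compared between H3K27ac and H3K4me3, on the 29 goat autosomes of the ARS1 assembly. ChIP-seq (chromatin immunoprecipitation followed by sequencing) maps where a histone carries a given modification, and a peak is a stretch of genome where the precipitated DNA is enriched. Both marks were mapped in the liver of the same 3 goats (A, B and C), with an Abcam antibody each (ab4729 for H3K27ac and ab85850 for H3K4me3), so the groups hold 3 libraries per mark. The goats were adult, healthy Yunnan black goats, and the liver was taken straight after death, frozen and cross-linked with formaldehyde. The peaks used were all those on chromosomes 1 to 29, that is 210806 of 243196 peaks in the 6 goat lists and of 616400 in the whole series, which also covers cattle and sheep. Whole liver holds several cell types, and a weaker mark in all cells cannot be told apart from a mark in fewer cells.

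Acetylation of lysine 27 of histone H3 (H3K27ac) is placed by acetyltransferases such as p300 and CBP and is found at active enhancers and active promoters. Trimethylation of lysine 4 (H3K4me3) is placed by SET1 and MLL complexes and is concentrated around the transcription start sites of active or poised genes. An active promoter usually carries both marks, and an active enhancer usually carries H3K27ac with little H3K4me3. The peak lists carry no gene names and an annotation of ARS1 was not used here, so regions are given by their coordinates and are called neither promoters nor enhancers.

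How the goat lists of the marks differed in the number of peaks was asked first. H3K27ac had 40457 autosomal peaks in goat A, 48735 in goat B and 43705 in goat C, a mean of 44299 ± 4171 (SD, n = 3). H3K4me3 had 23483 in goat A, 26952 in goat B and 27474 in goat C, a mean of 25970 ± 2169 (SD, n = 3). Every H3K27ac library lay above every H3K4me3 library, and goat A was the lowest of both marks. H3K27ac thus had 1.70 times as many peaks (log2 difference 0.77, exact permutation p = 0.1). All permutation tests were two-sided, and with 3 against 3 libraries they cannot give a p below 0.1, so none of these single comparisons can pass 0.05. The autosomes held 95.4 to 95.9% of the peaks of an H3K27ac list but 71.4 to 78.5% of those of an H3K4me3 list, and the ratio over all sequences was smaller (log2 difference 0.41). With a stricter q threshold of 1e-05 the autosomal log2 difference was 0.48. Covered length differed less than peak number, with 24.3, 28.3 and 26.2 Mb for H3K27ac and 20.1, 23.4 and 24.4 Mb for H3K4me3 in goats A, B and C. The highest H3K4me3 library therefore covered more sequence than the lowest H3K27ac library.

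**Figure D1:**
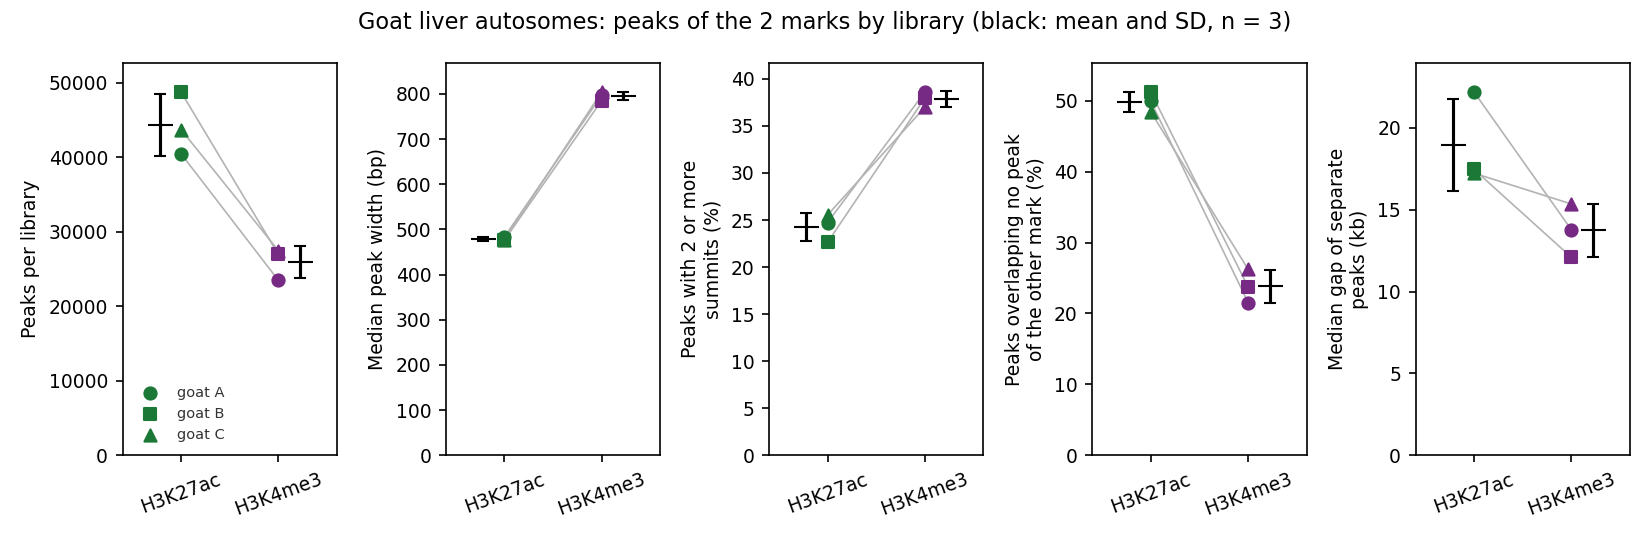
Autosomal peak number, median peak width in bp, percent of peaks with 2 or more summits, percent of peaks that overlap no peak of the other mark, and median gap in kb of these separate peaks, for the 3 goats and both marks. Grey lines join libraries of a goat, black bars give the mean and SD (n = 3), and the marks do not overlap in any of the 5 panels.

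H3K4me3 peaks were wider. Their median width was 797, 785 and 804 bp in goats A, B and C, against 483, 476 and 477 bp for H3K27ac. The groups did not overlap, and the log2 difference, H3K27ac minus H3K4me3, was -0.73 with a range over goats from -0.75 to -0.72 (exact permutation p = 0.1). H3K4me3 peaks were thus 1.66 times as wide. Peaks under 400 bp made up 38.1% of H3K27ac peaks and 20.8% of H3K4me3 peaks, while peaks of 1600 bp and over made up 1.77% and 8.78% (means of 3 goats). The marks also differed in enrichment. The median fold enrichment over background given by the authors' peak caller lay between 3.82 and 4.03 in H3K27ac lists and between 7.08 and 7.52 in H3K4me3 lists, and its part in the width difference was not tested. Among the 20000 strongest peaks of each library the difference in width was smaller (log2 -0.40), and in all sequences together it was -0.39.

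The peak caller can place several summits, local maxima of the signal, inside a peak. Summits were counted as rows of a list that share the same interval. Peaks with 2 or more summits made up 24.7, 22.6 and 25.5% of H3K27ac peaks and 38.6, 38.0 and 37.0% of H3K4me3 peaks in goats A, B and C. The H3K4me3 libraries were all higher, by 13.6 percentage points on average (exact permutation p = 0.1). The lead of H3K4me3 was smaller under other settings, with a difference, H3K27ac minus H3K4me3, of -7.27 points for the 20000 strongest peaks, -7.75 points for all sequences and -3.38 points with peaks within 500 bp merged. Peaks with 5 or more summits were rare, at 0.120% of H3K27ac and 0.602% of H3K4me3 peaks. Neighbouring summits of a peak lay 415, 405 and 411 bp apart for H3K27ac and 447, 453 and 461 bp apart for H3K4me3 (medians in goats A, B and C).

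At matched width the direction turned. Among peaks from 400 to under 800 bp wide, 17.6% of H3K27ac and 11.7% of H3K4me3 peaks had 2 or more summits, and among those from 800 to under 1600 bp the shares were 75.7 and 62.7% (means of 3 goats). In the wider class the goats had 75.4, 74.3 and 77.3% for H3K27ac and 65.5, 63.5 and 59.2% for H3K4me3. The groups did not overlap in either class (exact permutation p = 0.1 each). Averaged over 12 classes of 100 bp between 400 and 1600 bp, a comparison added after the data were seen, the share was 62.5 ± 0.84% for H3K27ac and 49.2 ± 2.5% for H3K4me3 (SD, n = 3). The H3K27ac share stayed above the H3K4me3 share by 11.1 to 16.1 percentage points with a q threshold of 1e-05, with the 20000 strongest peaks, with all sequences or with peaks within 500 bp merged. The larger share of multi-summit peaks in H3K4me3 thus went together with its wider peaks, and an H3K27ac peak of the same width was more often divided.

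**Figure D2:**
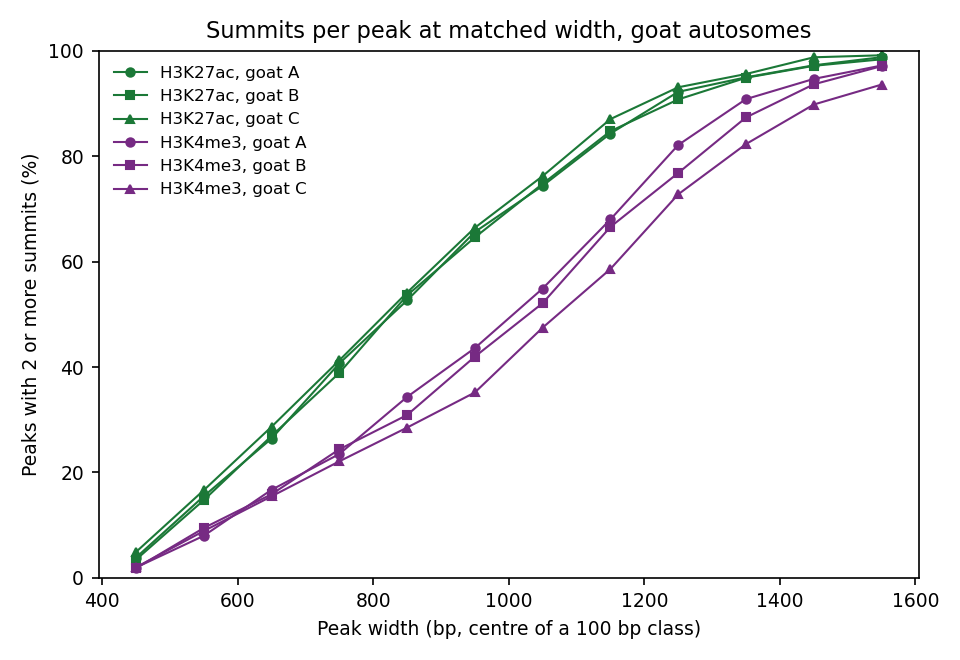
Percent of peaks with 2 or more summits (y axis) against peak width in bp in 100 bp classes (x axis), for each goat and mark. The H3K27ac lines lie above the H3K4me3 lines; for peaks of 900 to 999 bp they stand at 64.6 to 66.4% against 35.2 to 43.6%.

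Peak strength separated the marks in another way. Peaks of each library were divided into 4 equal classes by fold enrichment. The median width of H3K27ac peaks grew from 361 bp in the weakest to 827 bp in the strongest class, and the share with 2 or more summits from 14.3 to 42.2%. H3K4me3 peaks were widest in the second strongest class, with 1106 bp and 55.1% multi-summit peaks, and had 1024 bp and 41.5% in the strongest class (means of 3 goats). This turn was seen in the ranges over goats, from 54.6 to 55.6% against 41.1 to 41.7%. The H3K4me3 peaks with 5 or more summits were of low enrichment, with a median of 4.95 ± 0.26 against 9.03 ± 0.47 for those with 2 summits (SD, n = 3).

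How often the marks met was asked within each goat. Without an H3K4me3 peak over them were 49.9, 51.2 and 48.4% of H3K27ac peaks in goats A, B and C, and H3K4me3 peaks without H3K27ac made up 21.5, 23.7 and 26.2%. The groups did not overlap, and the mean difference was 26.004 percentage points (exact permutation p = 0.1). It was 15.001 points with a q threshold of 1e-05, 9.70 points with all sequences, and 16.05 points where 50% of a peak's length had to be covered. At matched width, again over classes of 100 bp, it was 6.91 points, with 20.8 to 23.0% for H3K27ac and 12.3 to 17.4% for H3K4me3. With the 20000 strongest peaks of each library, which sets the number of peaks equal, it was -5.39 points, with 26.6% of H3K27ac and 32.0% of H3K4me3 peaks. The direction thus held in the other settings and reversed with the 20000 strongest peaks, a cut that also changes peak strength.

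The share also followed the partner library. The H3K27ac peaks of goat B lacked H3K4me3 in 56.3% when set against goat A, which had the fewest H3K4me3 peaks, and in 51.2% against their own liver. For goat A the share was 49.9% against its own liver and 45.3% against goat B or goat C. For goat C it was 48.4% against its own liver, 49.1% against goat B and 54.0% against goat A. The own liver thus gave the lowest share in goats B and C but not in goat A, and for goat B the share against goat C, 51.5%, was close to it.

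H3K27ac peaks were largely contained in H3K4me3 peaks where they met. Of the overlapping H3K27ac peaks, 99.3% touched a single H3K4me3 peak and 48.7 ± 5.1% were covered over their whole length (SD, n = 3). Of the overlapping H3K4me3 peaks, 87.5 ± 2.6% touched a single H3K27ac peak, 12.02 ± 2.34% touched 2, and 11.1 ± 1.7% were fully covered. Over all H3K4me3 peaks, overlapping or not, the share touching 2 or more H3K27ac peaks grew with the summits of the H3K4me3 peak, from 1.12% for 1 summit to 19.8% for 2, 30.1% for 3 and 48.7% for 5 or more. Overlapping peaks were also the wide ones. Their median width was 671 bp for H3K27ac and 951 bp for H3K4me3, against 374 and 414 bp for peaks without the other mark. Away from the other mark, the marks therefore differed much less in width, and the shares with 2 or more summits were 11.8 and 15.2%.

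Separate peaks lay mostly over 5 kb from the other mark. The median gap, from edge to edge, was 22.2, 17.5 and 17.2 kb for H3K27ac peaks and 13.8, 12.1 and 15.3 kb for H3K4me3 peaks in goats A, B and C. The groups did not overlap but came close in goat C, and the log2 difference was 0.46 (exact permutation p = 0.1). It was 0.61 without goat C and 0.35 without goat A, 0.20 with a q threshold of 1e-05, 0.24 with peaks within 500 bp merged and -0.09 with the 20000 strongest peaks. The longer gap of H3K27ac thus kept its direction in these settings except with the 20000 strongest peaks. With the q threshold its exact permutation p was 0.4. The cut to the strongest peaks changes both list length and peak strength, and these were not separated.

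The gaps fell into 2 bands with a dip near 1 to 2 kb. Of the separate peaks, 12.3 ± 1.8% of H3K27ac and 19.4 ± 2.7% of H3K4me3 lay within 1 kb of the other mark (SD, n = 3). Between 1 and 5 kb there were 7.83 and 12.9%, and between 5 and 100 kb most of the rest. Gaps over 100 kb were found for 12.6 ± 2.2% of H3K27ac and 14.2 ± 1.1% of H3K4me3 peaks, ranges that overlapped. The nearby H3K27ac peaks were weak, with a median fold enrichment of 3.03 within 1 kb and 3.92 beyond 100 kb, and the H3K4me3 peaks went from 3.85 to 5.69. The lowest median, 2.83, was that of H3K27ac peaks between 1 and 5 kb away.

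**Figure D3:**
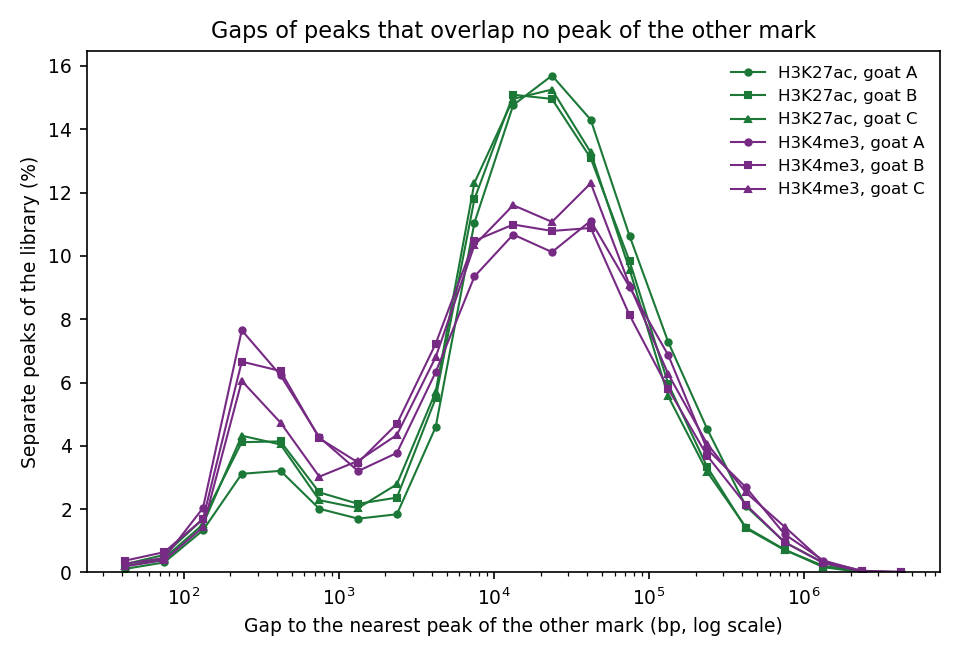
Percent of the separate peaks of a library (y axis) by gap to the nearest peak of the other mark in bp (x axis, log scale, classes of 0.25 log10 units), for each goat and mark. All 6 lines have a small band of gaps below 1 kb, higher for H3K4me3, and a large band around 10 to 100 kb, higher for H3K27ac.

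Across the 29 autosomes, H3K27ac had more peaks than H3K4me3 on every chromosome. All 29 were called by limma with Benjamini-Hochberg adjustment over the autosomes (adjusted p under 0.05, percent called 100%), with a median log2 difference of 0.80. With a q threshold of 1e-05, 28 were called, and chromosome 18 was not. The chromosomes of a library share its total, so these are not 29 independent results, and the share of a library's peaks that a chromosome holds is the measure that does not move with the total. Chromosome extent was taken to the last peak. Chromosome 19 was the densest for both marks, with 35.4 ± 2.8 H3K27ac and 23.4 ± 1.6 H3K4me3 peaks per Mb (SD, n = 3). Chromosomes 25 and 18 came next, with 30.4 and 29.02 per Mb for H3K27ac and 20.8 and 21.5 for H3K4me3. Chromosome 12 was the poorest, with 11.1 ± 1.2 and 6.42 ± 0.59 per Mb, followed by chromosomes 6 and 20. For H3K27ac the SDs of chromosomes 25 and 18 overlap, as do those of 12 and 6, but their order held within each goat. For H3K4me3 the SDs of chromosomes 19 and 18 overlap, as do those of 12, 20 and 6. The SDs over goats include the library totals, which all chromosomes of a library share.

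By share of peaks, 21 autosomes were called (72.4%), of which 13 were higher in H3K27ac (44.8%) and 8 lower (27.6%, limma, adjusted p under 0.05). Chromosome 18 was lowest. It had 1810, 2099 and 1947 H3K27ac peaks and 1314, 1469 and 1550 H3K4me3 peaks in goats A, B and C. The H3K27ac numbers lay above the H3K4me3 numbers, but by a ratio of only 1.35, and the log2 difference in share was -0.33 ± 0.02 (SE, limma, adjusted p = 3.02e-32). Chromosomes 25 and 23 followed with -0.22 and -0.19. Chromosome 28 was highest, with 727, 909 and 834 H3K27ac peaks against 361, 415 and 425 H3K4me3 peaks, a ratio of 2.06 and a log2 difference in share of 0.27 ± 0.03 (SE, limma, adjusted p = 7.65e-16). Chromosomes 1 and 20 followed with 0.25 and 0.19. With each autosome's own variance in place of the moderated variance, an alternative added after the data were seen, 11 were higher and 8 lower. With the 20000 strongest peaks of each library, 7 autosomes were higher and 9 lower, and the log2 difference in share was -0.17 on chromosome 18, -0.0861 on chromosome 25, -0.0990 on chromosome 23, 0.19 on chromosome 28 and 0.0915 on chromosome 1. Chromosome 20 was then not called (0.0685, limma, adjusted p = 0.0628). Since limma pooled the spread over autosomes that share libraries, these p-values are not those of independent tests.

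**Figure D4:**
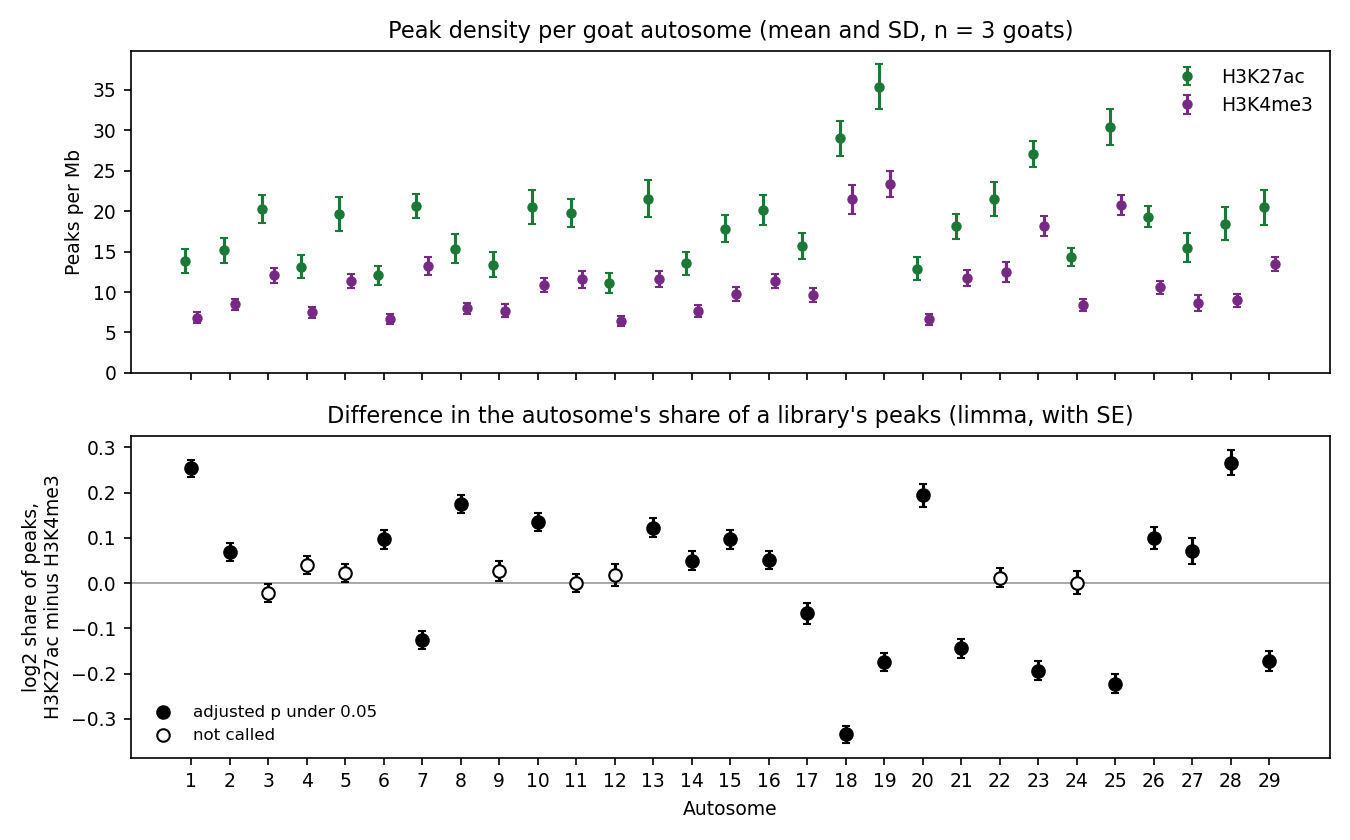
Upper panel, peaks per Mb of each autosome and mark (mean and SD, n = 3 goats). Lower panel, log2 difference between the marks in the share of a library's peaks that lies on the autosome, with its SE; filled points are called, 13 above and 8 below 0, with chromosome 18 lowest at -0.33 and chromosome 28 highest at 0.27.

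The chromosomes dense in peaks were those where the marks were closest in number. The log2 difference in peak number fell with H3K27ac density (Pearson -0.65, Spearman -0.51) and with H3K4me3 density (Pearson -0.79, Spearman -0.68), over 29 autosomes that share 6 libraries and whose densities also enter the difference. Peaks without the other mark were likewise rarer there. On chromosome 25, 36.7% of H3K27ac peaks lacked H3K4me3, on chromosome 18 37.2%, and on chromosome 20 59.7%. For H3K4me3 peaks the autosomes were more alike, from 19.5% on chromosome 25 to 29.3% on chromosome 24.

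Width and summits differed in the same direction on each autosome. All 29 autosomes were lower in H3K27ac for width and for summits per peak (limma, adjusted p under 0.05, percent called 100% for each). The difference in mean log2 width ran from -0.61 on chromosome 28 to -0.44 on chromosome 27, and that in summits from -0.27 summits per peak on chromosome 26 to -0.15 on chromosome 18. Median widths per autosome spanned 455 to 510 bp for H3K27ac and 692 to 864 bp for H3K4me3, ranges that do not meet. With peaks within 500 bp merged, 15 autosomes remained called lower for summits and 0 were higher.

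The distance to the other mark was fitted as the mean log2(gap + 1), in which overlapping peaks count as 0. All 29 autosomes were higher in H3K27ac (limma, adjusted p under 0.05, percent called 100%), from 1.73 ± 0.26 on chromosome 18 to 5.24 ± 0.30 on chromosome 1 (SE). Most of this difference was overlap rather than length of gap. Over separate peaks alone, an alternative added after the data were seen, 10 autosomes were called higher and 0 lower, with a median log2 difference of 0.37. With the 20000 strongest peaks, 20 autosomes were called lower and 1 higher.

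Bins of 1 Mb resolved the pattern along the chromosomes. Of 2477 bins, 75 held no peak in any goat library, 140 held no H3K27ac peak and 178 no H3K4me3 peak. A bin held a median of 14.0 H3K27ac and 7.33 H3K4me3 peaks (means of 3 goats). The 247 densest bins of each mark, 10% of all, held 30.0% of H3K27ac and 34.6% of H3K4me3 peaks, and 69.2% of these bins were shared by the marks. Bin numbers were correlated with Pearson's r of 0.98 between goats for H3K27ac, 0.98 to 0.99 for H3K4me3 and 0.87 to 0.92 between the marks, over 2477 bins that share libraries and assembly.

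**Figure D5:**
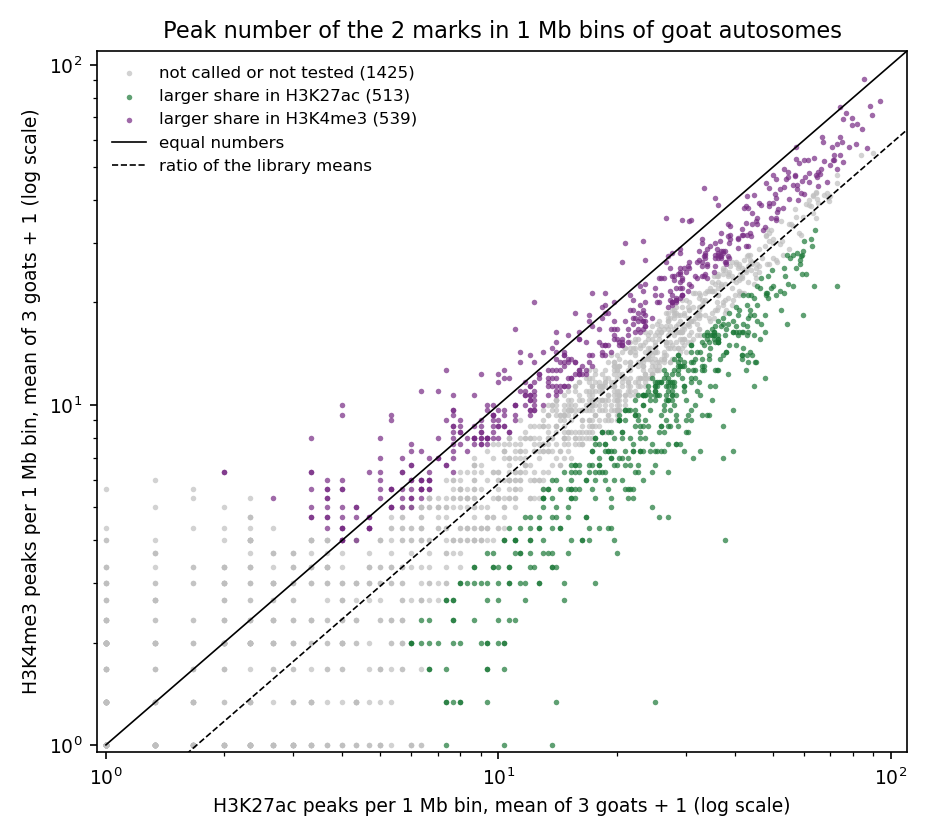
H3K27ac (x axis) and H3K4me3 (y axis) peaks per 1 Mb bin, mean of 3 goats plus 1, on log scales. The solid line marks equal numbers and the dashed line the ratio of the library means; 513 bins held a larger share of the H3K27ac peaks and 539 a larger share of the H3K4me3 peaks.

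In 1942 bins with a mean of at least 3 peaks, H3K27ac had more peaks in 1483 (76.4%) and fewer in 28 (1.44%, limma with Benjamini-Hochberg adjustment, adjusted p under 0.05). With goat A, B or C left out, 1290, 1074 and 1174 bins were higher and 27, 17 and 13 lower. Without the filter on low bins, 1515 of 2477 bins were higher and 105 lower, and with the 20000 strongest peaks of each library 296 of 1635 tested bins were higher and 292 lower. By share of a library's peaks, which removes the larger total of H3K27ac, 1052 bins were called (54.2%), of which 513 were higher in H3K27ac (26.4%) and 539 lower (27.8%). Chromosome 18 had 35 of its 60 tested bins lower in share (58.3%) and 10 higher, and chromosome 19 had 27 of 60 lower (45.0%). On chromosome 1, 44 of 115 bins were higher (38.3%) and 17 lower.

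The bins of largest difference were named by a rule on number, among called bins whose groups do not overlap. On chromosome 20 from 21 to 22 Mb, H3K27ac had 18, 36 and 18 peaks and H3K4me3 0, 0 and 1 in goats A, B and C. On chromosome 13 from 49 to 50 Mb the numbers were 14, 12 and 12 against 0, 0 and 0. Chromosome 8 from 58 to 59 Mb had 11, 16 and 12 against 0, 0 and 1. These 3 bins were almost free of H3K4me3 peaks while their H3K27ac peaks had median widths of 399, 428 and 419 bp, against 368 to 381 bp for all H3K27ac peaks without H3K4me3. Chromosome 1 from 22 to 23 Mb had 9, 10 and 9 H3K27ac peaks and 0 H3K4me3 peaks in each goat. Chromosome 16 from 68 to 69 Mb was different, since it held H3K4me3 peaks in every goat, with 35, 40 and 35 H3K27ac against 3, 4 and 2 H3K4me3 peaks. Its few H3K4me3 peaks were wide, with a median of 1056 bp, and 77.8% had 2 or more summits.

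The 5 bins with the reverse pattern held few H3K27ac peaks, with means of 1 to 3 per goat. Chromosome 1 from 40 to 41 Mb had 1 H3K27ac peak in each goat and 5, 5 and 6 H3K4me3 peaks. Chromosome 23 from 25 to 26 Mb had 1 in each goat against 5, 6 and 5, and chromosome 14 from 59 to 60 Mb had 1, 3 and 5 against 8, 8 and 9. Groups that do not overlap were part of the rule that named these bins. Chromosome 14 from 94 to 95 Mb had 4, 3 and 2 against 7, 8 and 12. On chromosome 5 from 14 to 15 Mb there were 2, 2 and 3 against 5, 7 and 9. Without goat B, the calls of chromosome 14 from 59 Mb (adjusted p = 0.142, limma) and from 94 Mb (adjusted p = 0.0681), and of chromosome 5 from 14 Mb (adjusted p = 0.0688), were lost. The log2 differences without goat B were -1.45, -1.40 and -1.16, against -1.36, -1.32 and -1.25 with all goats. With each bin's own variance, the call of chromosome 14 from 59 Mb was also lost (adjusted p = 0.0596, limma).

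Over all 2477 bins, 39 bins had H3K4me3 peaks in all 3 goats and no H3K27ac peak in any, and 54 bins had the reverse. Chromosome 25 from 26 to 27 Mb had the most H3K27ac peaks, with 88, 98 and 92, and had 77, 77 and 78 H3K4me3 peaks. Chromosome 5 from 56 to 57 Mb and chromosome 25 from 1 to 2 Mb followed with means of 89.0 and 88.7 H3K27ac peaks. For H3K4me3 the densest bin was chromosome 23 from 18 to 19 Mb, with 86, 92 and 92 H3K4me3 peaks against 86, 85 and 82 H3K27ac peaks in goats A, B and C. There the numbers overlapped at 86 in goat A and did not differ beyond the threshold (log2 -0.09 ± 0.05 SE, limma, adjusted p = 0.119). Chromosome 29 from 45 to 46 Mb had means of 74.7 H3K4me3 and 87.7 H3K27ac peaks.

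Width, summits and distance could be fitted in 1719 bins with at least 3 peaks in each library. H3K27ac peaks were narrower in 1482 bins (86.2%) and wider in 1 (0.0582%), and had fewer summits in 646 (37.6%) and more in 9 (0.524%, limma, adjusted p under 0.05). The summit calls were fragile. With goat A, B or C left out, 0 bins were called for summits by limma, while 580 to 704 had an unadjusted p under 0.05. The distance was called in 1212 bins (70.5%), larger for H3K27ac in 1154 (67.1%) and smaller in 58 (3.37%). Over separate peaks alone, 529 bins could be fitted, and 34 were called higher and 16 lower. With the 20000 strongest peaks of each library, 181 of 1482 tested bins were called higher and 379 lower.

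The ratio of the marks changed little with density in bins of middle density. Bins with over 10 to 20 H3K27ac peaks had 1.77 times as many H3K27ac as H3K4me3 peaks, and those with over 20 to 40 had 1.82 times as many. In bins with over 40 it was 1.601, and in bins with over 0 to 5 it was 1.29, and the classes were set by H3K27ac number itself. Along the chromosomes, divided into 10 equal parts from the first base to the last peak, the last 2 parts held 13.1 ± 0.23 and 12.1 ± 0.25% of H3K27ac peaks and 14.3 ± 0.063 and 13.9 ± 0.23% of H3K4me3 peaks (SD, n = 3). The fourth part was the poorest for H3K4me3, with 7.71 ± 0.12%. For H3K27ac the fourth and second parts, with 8.51 ± 0.12 and 8.54 ± 0.16%, did not differ beyond their spread.

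Regions found in all 3 goats, where a peak of each other goat covered at least 50% of the length, numbered 29359 for H3K27ac and 21311 for H3K4me3. Of these, 30.4 and 11.4% overlapped no peak of the other mark in any goat, below the shares within single goats. Those over 100 kb from the other mark were 813 and 378. The H3K27ac region farthest from H3K4me3 lay at chr7:33176145-33176573 (ARS1), 1525 kb away, with 1 summit in each goat and fold enrichments of 4.59, 4.19 and 3.83 in goats A, B and C. The next lay close by at chr7:33160792-33161394, and then chr12:47639041-47639295, 1489 kb from H3K4me3. The H3K4me3 region farthest from H3K27ac lay at chr4:120676569-120677506, 1843 kb away, with fold enrichments of 7.85, 11.7 and 13.9. This region was the last peak of either mark on chromosome 4, so its gap was measured toward the chromosome's interior only. It was followed by chr26:23192123-23193130 and chr14:31297088-31297610, at 1298 and 1282 kb.

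The region with the most summits in every goat was chr23:2229631-2232402 for H3K27ac, with 5, 6 and 5 summits, and chr8:81919201-81922510 for H3K4me3, with 7, 8 and 7. Both overlapped the other mark. The enrichment of the H3K4me3 region was 3.01, 3.12 and 3.36, under the median of its mark in each goat. Stretches without a peak of either mark in any goat were longest at chr16:14207324-17250625, chr14:84032718-86988080 and chr12:78316500-81266884, with lengths of 3.04, 2.96 and 2.95 Mb. In all, 177 such stretches exceeded 1 Mb and 22 exceeded 2 Mb.

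Whether the marks differed more in goats than in the other ruminants was tested on the difference within each animal, in 3 goats against 2 cattle and 3 sheep. Species, breed, genome assembly and collection differ together between these animals and cannot be told apart. The width difference was -0.72, -0.72 and -0.75 (log2) in goats A, B and C and -0.67 to -0.52 in the other 5 animals. All 3 goats lay beyond the others, but the test missed the threshold after adjustment over 5 measures (p = 0.0357, adjusted p = 0.134, two-sided exact permutation test over 56 arrangements). The smallest p this exact permutation test allows is 0.0179. A single measure at that floor cannot pass 0.05 after the adjustment unless other measures are low too. The summit difference was -13.9, -15.3 and -11.5 percentage points in goats and -11.0 to -5.32 in the others (p = 0.0536, adjusted p = 0.134, same exact test). Peak number, peaks without the other mark and gap had adjusted p of 0.149, 0.290 and 0.339 by the same exact permutation test. With the 20000 strongest peaks of each library the width difference between goats and the others shrank from -0.15 to -0.0068 (log2, exact permutation p = 0.964), and with peaks within 500 bp merged to -0.0091 (exact permutation p = 0.911). With all sequences included, the width difference changed sign relative to the other species (0.15 on the log2 scale, adjusted p = 0.0893, exact permutation test).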

How the data were processed

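The 6 goat peak lists were used, with cattle and sheep lists for the comparison between species. According to the study's methods, reads were trimmed, aligned with BWA, freed of duplicates with Picard, subsampled to a common depth and called as narrow peaks with MACS2 at q under 0.01, with ARS1 as the goat assembly. The submitters' processing notes name BWA 0.7.17, Picard 2.25.0 and MACS2 2.1.1. The study's methods describe input libraries as controls for artifacts of shearing and amplification. Whether they were the background in peak calling was not stated, and they had no list here. The deposited lists give positions, fold enrichment, which is a ratio over background, and −log10 of p and q, which the authors' peak caller computed. Rows with the same interval were joined to 1 peak, which kept its largest fold enrichment and largest −log10 q. A list carries no read number, so the reads behind a peak are not known here beyond the common subsampling, and no counting interval is given. Precision rests on 3 goats per mark.

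Peaks were placed by their midpoint. Peak numbers were fitted as log2(number + 1), shares as that value over the library's total, with limma 3.58.1 (moderated variance with trend) in R 4.3.3, H3K27ac minus H3K4me3, and Benjamini-Hochberg adjustment. Bins needed a mean of 3 peaks for number and share, and 3 peaks in each library for the other measures. Single values were compared by exact permutation in Python 3.11.15 with numpy 2.4.6 and pandas 2.3.3, with matplotlib 3.10.9 for the figures. The gap code was checked against bedtools 2.31.1 (0 of 216806 peaks differed), and the limma step was tested on simulated data. The sample titles give the liver of each library, so the animal letter pairs the marks. Deviations of bin shares from the group mean had Pearson's r of 0.090 to 0.098 between libraries of the same goat over 1942 bins. Between goats r was below 0, which centring on the group mean brings about on average once same-goat values are positive.

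Named bins and regions follow a rule on the size of the difference, called features and groups that do not overlap, with the 3 highest and lowest autosomes. The members, measures and rules were chosen with earlier results of these data known. Alternatives were a q threshold of 1e-05, the 20000 strongest peaks, peaks within 500 bp merged, all sequences, every summit counted, other summaries and filters, the animal as a block, and each goat left out. Matched width, separate peaks alone and the features' own variance were added after the data were seen. Peaks on scaffolds entered only the alternative with all sequences. Genes and sequences were not analysed here.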

Additional observations from a re-analysis of the deposited data

Results flagged for a closer look

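Peaks on unplaced scaffolds, which entered only the alternatives with all sequences, were found in all 6 goat lists. They averaged 2007 per H3K27ac list (1820, 2101 and 2099 in goats A, B and C) and 8777 per H3K4me3 list (8000, 7354 and 10977). The H3K4me3 peaks there were narrower than on the autosomes, with a median width of 320 to 325 bp, and 13.6 to 14.4% had 2 or more summits. Their median fold enrichment of 6.86 to 7.16 lay just under the autosomal 7.08 to 7.52, while H3K27ac peaks on scaffolds had 4.66 to 5.06 against 3.82 to 4.03 on autosomes. What sets the scaffolds apart was not tested.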

How the results depend on the processing

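Many results changed with the 20000 strongest peaks of each library. The difference in peaks without the other mark became -5.39 percentage points and that in the gap -0.0915 (log2). On autosomes, peak number and share each had 16 calls (7 higher, 9 lower in H3K27ac), since the totals are then equal, and distance 21 calls. Peak number and share each had 588 calls in 1635 tested bins, and width had 751, summits 111 and distance 560 in 1482. Against cattle and sheep, peaks without the other mark reached -2.65 points. A log2 difference in peak number cannot be had at equal totals. With a q threshold of 1e-05, there were 967 calls for number in 1837 bins and 286 for summits in 1647. With peaks within 500 bp merged, 1672 bins had 847 calls for width and 144 for summits, and autosomes 15 for summits. With all sequences, goats minus cattle and sheep became -0.0717 for number, 0.15 for width, 0.32 points for summits and -6.10 points for peaks without the other mark. At matched width, the summit difference was 13.4 points in favour of H3K27ac. Separate peaks alone gave 10 autosomes and 50 of 529 bins called for distance, and the bins' own variance 251 called for summits. Leaving out 1 goat gave 0 to 0 bins called for summits, where fewer libraries leave fewer degrees of freedom. The cause of the other changes was not tested. Without the filter on low bins, 553 bins were higher and 803 lower in share. This setting includes the 75 bins without a peak in any goat library. Since 1 is added to each number, an empty bin comes out lower in H3K27ac share through the library totals alone. The added lower calls are thus partly fixed by construction and say little about the marks.

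With the animal as a replicate block, the paired fit gave 1557 bins called for number and 503 for summits, and the same numbers of autosomes as without the block. The exact sign-flip test over 3 paired goats gave p = 0.25 for each of the 5 single measures, the smallest it allows. Named autosomes and bins kept direction and call in 446 of 468 alternatives. Reversed were, with the 20000 strongest peaks, the number on chromosomes 18, 25 and 23 (-0.17, -0.0861 and -0.0990). So was the distance on chromosomes 18, 25 and 23 (-1.83, -1.61 and -1.57). On chromosome 1 the distance only just changed sign (-0.00338), so its difference vanished rather than turned. The lists carry no read numbers, so what depth limits was not tested, and the exact permutation tests of 3 against 3 libraries cannot reach p under 0.05.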
